A study of Mus musculus with 18 samples.

Results

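The 34 genes described here act in mitosis, and RNA of each was measured in 18 libraries of mouse tail-tip fibroblasts. They were chosen by name from a list of mitotic genes, with 1 transcript per gene, out of 24445 gene symbols in the expression table. The series belongs to a study of CRISPR/Cas9 treatment in a mouse model of Hutchinson-Gilford progeria, in which a mutant form of Lmna leads to early ageing; the allele is called Pro. Primary fibroblasts of 2-month-old mice at passage 5 received a guide RNA by lentivirus: gLmna-1, gLmna-2, or gMock, a guide with no match in the genome. The genotypes were Pro/Pro;Cas9/+ (homozygous cells below), Pro/+; +/+ (heterozygous cells, which carry no Cas9 transgene and served as a second negative control) and +/+;Cas9/+ (wild-type cells, which carry Cas9 as the homozygous cells do). There were 2 mice per genotype, called mouse 1 and mouse 2 within each genotype, and cells of each mouse received all 3 guides, so every group holds 2 libraries. All 18 cultures were exposed to virus with an mCherry marker and polybrene at 4 µg/ml, over 80% of the cells were mCherry-positive, and no cells were sorted or selected. A library may therefore also hold cells without a guide. Mouse 2 of the heterozygous genotype may be a single animal or several pooled, which its label leaves unsaid.

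Entry into mitosis depends on Cdk1, a kinase that is active only when bound to cyclin A or cyclin B. The condensed chromosomes are then captured by spindle microtubules at the kinetochores, a checkpoint holds the cell until all are attached, and the anaphase-promoting complex marks cyclin B for destruction so that the chromosomes separate and the cell divides. RNA of most of these genes is made in G2 and M phase and is scarce in resting cells, which is why Mki67 and Top2a are widely used to show how much of a culture is dividing. In bulk RNA, fewer dividing cells and less RNA per dividing cell cannot be told apart.

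The libraries held 22423786 to 42623275 reads, recovered from the steps of the FPKM values (fragments scaled to transcript length and library depth). Lmna, the gene the guides target, was at 196 FPKM or more in all 18 libraries, and a gene-level value does not read editing of the DNA. Fibroblast markers (10 genes, with Col1a1, Col3a1 and Vim) summed to between 8650 and 12100 FPKM. Macrophage markers (14 genes) summed to 544 to 1780 FPKM in homozygous, 84.7 to 692 FPKM in heterozygous and 80.0 to 477 FPKM in wild-type cells, and none of the 14 was below 1 FPKM in every library. Keratinocyte and endothelial markers summed to at most 2.92 and 2.87 FPKM, with Krt5, Krt14, Epcam, Pecam1 and Kdr below 1 FPKM throughout. Skeletal muscle markers (5 genes) summed to 8.69 to 41.8 FPKM in homozygous, 7.04 to 11.6 FPKM in heterozygous and 18.3 to 66.3 FPKM in wild-type cells, nearly all of it Acta1, with Myod1, Myog and Myf5 below 1 FPKM throughout. Pigment and Schwann cell markers (9 genes) summed to 6.22 to 38.9 FPKM in homozygous, 6.60 to 8.55 FPKM in heterozygous and 6.63 to 16.9 FPKM in wild-type cells, with Dct, Tyr and Mlana below 1 FPKM throughout.

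All 34 genes passed the filter on low values (1 FPKM in at least 2 libraries), and 18 of them reached 1 FPKM in every library. Ube2c, the ubiquitin-conjugating enzyme of the anaphase-promoting complex, had the highest median level over the 18 libraries with 13.9 FPKM. Next came Cdk1 (12.7 FPKM), Birc5 (survivin, 12.3 FPKM), Kif20a (a kinesin of the central spindle, 11.9 FPKM) and Ccna2 (cyclin A2, 11.8 FPKM). Cenpf, a large kinetochore and nuclear matrix protein, had the lowest median with 1.08 FPKM, and Ttk, the checkpoint kinase Mps1, and Ccnb1, cyclin B1, stood just above it with 1.45 and 1.5 FPKM. Per length of transcript, the B cyclins therefore differed: Ccnb2 had a median of 6.98 FPKM. The values rest on 24 reads (the lowest for Ccnb1) to 3323 reads (the highest for Top2a).

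The 34 genes went up and down together from library to library. Each of the 34 had its highest level in the same library, gMock in wild-type mouse 2, and 30 had their lowest in another wild-type library, gLmna-2 in mouse 1. Of the squared log2 deviations of the genes from their own means, 91.8% were carried by 1 value per library, the mean over the 34 genes. The matching shares over all genes, for these counts and for the 91.8%, are not given here. The fold between the highest and lowest library had a median of 7.33 and ran from 2.68 for Mad2l1, the checkpoint protein Mad2, to 14.3 for Plk1, polo-like kinase 1. On the log2(FPKM + 1) scale the range over the 18 libraries had a median of 2.03 for the 34 genes, against 0.65 for the 12599 genes tested, of which 18.2% reached the smallest range among the 34. The sum of their FPKM was 189 and 190 with gLmna-1, 132 and 146 with gLmna-2 and 229 and 213 with gMock in homozygous cells (mouse 1 and mouse 2). In heterozygous cells it was 232 and 254 with gLmna-1, 220 and 220 with gLmna-2 and 243 and 261 with gMock. Wild-type cells gave 240 and 121 with gLmna-1, 62.6 and 94.1 with gLmna-2 and 81.5 with gMock in mouse 1. With gMock in mouse 2 it was 6.1 times the lowest of these sums. The 2 wild-type mice thus spanned the whole scale, and the 2 mice of either other genotype stood close to each other under each guide.

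**Figure D1:**
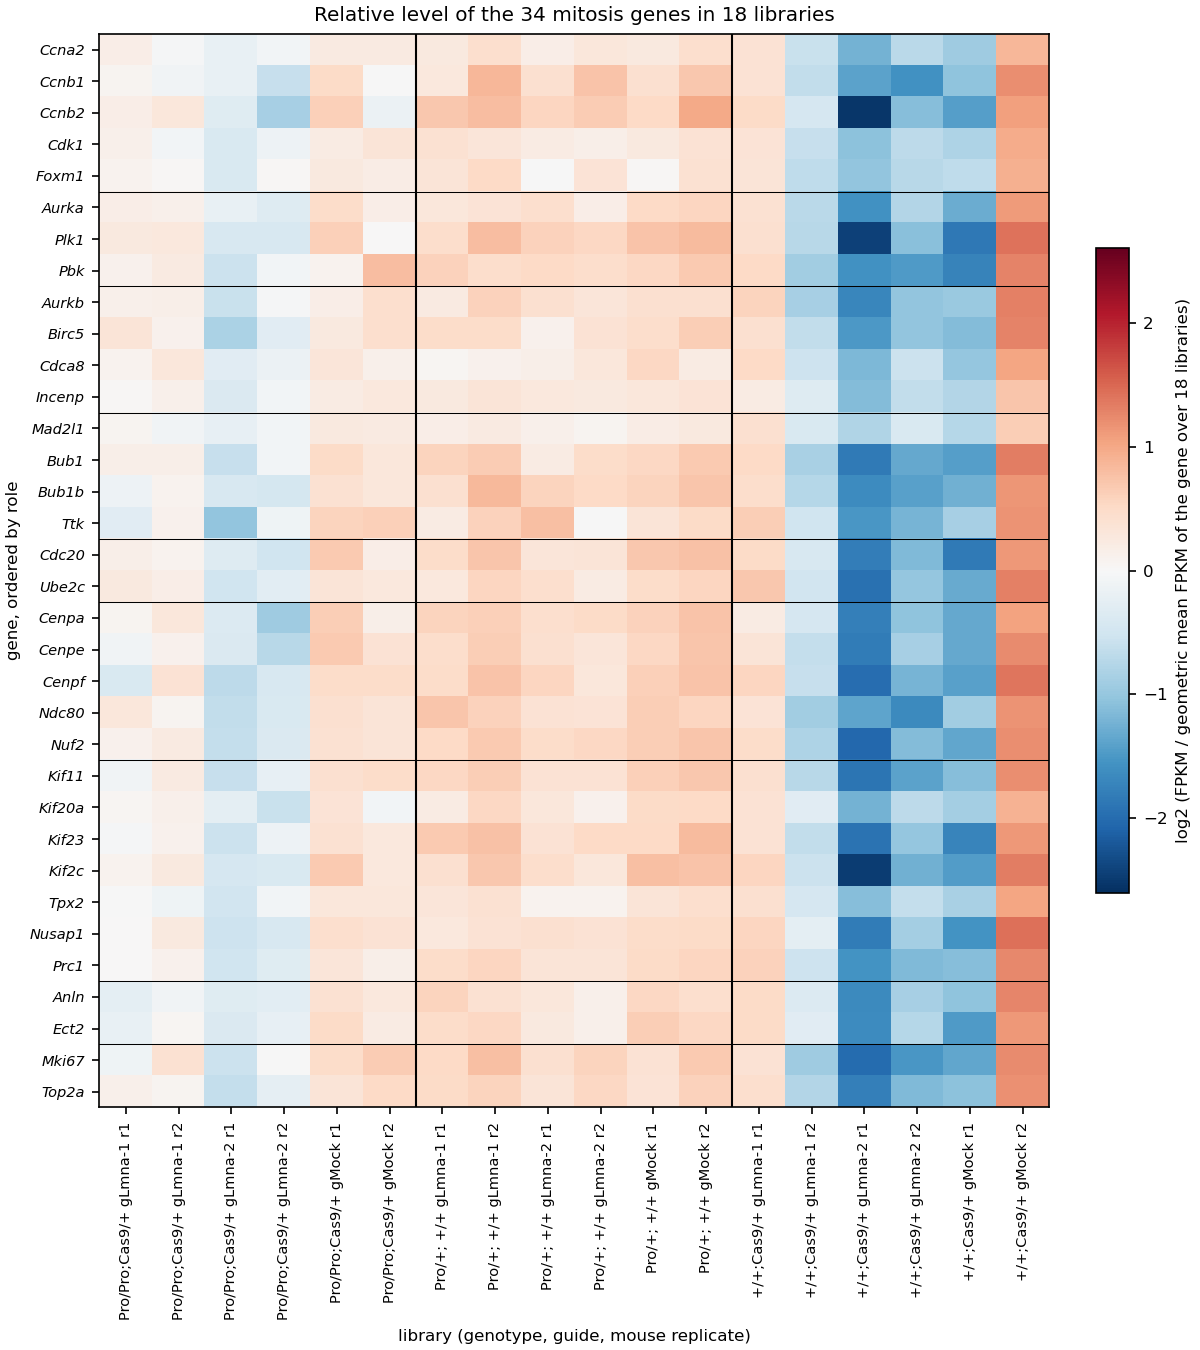
Each row is 1 of the 34 genes, ordered by role (horizontal lines part the roles), and each column is 1 of the 18 libraries (r1 and r2 are mouse 1 and mouse 2). Colour gives log2 of the FPKM over the gene's geometric mean, and whole columns share a colour: the wild-type gMock library of mouse 2 is red and the wild-type gLmna-2 library of mouse 1 is the deepest blue in 30 of 34 rows.

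Wild-type gMock is the group whose mice stood farthest apart. There mouse 2 exceeded mouse 1 in all 34 genes, by a median of 1.78 on the log2(FPKM + 1) scale, where the median over all 12599 genes was 0.05. Of all genes, 60.8% were higher in mouse 2. With gLmna-1 the wild-type mice stood the other way round, and mouse 2 was below mouse 1 in all 34 genes, with a median difference of −0.79. There 46.9% of all genes were higher in mouse 2, with a median of −0.01. In the 6 homozygous and heterozygous groups the same median lay between −0.06 and 0.14. Macrophage markers were at 283 FPKM in wild-type gMock mouse 1 and at 80.0 FPKM, the lowest of the 18 libraries, in mouse 2, and their part in the result was not tested. Medians over the 34 genes that use wild-type gMock are therefore also given below without 1 library or mouse where that changes them. Counts at an unadjusted p, of signs and of overlap are given with all libraries only and can change likewise.

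The promoters of the genes share sequence elements that the choice of the genes did not use. Many genes of the G2 and M programme carry a CHR (cell cycle genes homology region), the letters TTTGAA or TTTAAA near the start, which is bound by the DREAM and MuvB complexes, and CCAAT boxes, bound by NF-Y. RefSeq promoter sequences on GRCm38.p6, running from 250 bases before to 50 bases after the start, were matched for 27 of the 34 genes. The genes not matched were Ccna2, Foxm1, Pbk, Aurkb, Incenp, Kif20a and Tpx2. TTTGAA or TTTAAA on either strand (TTTAAA reads the same on both) was present in 23 of 27 promoters (85.2%), against 19% of the 9828 promoters of genes tested here. TTTGAA alone was present in 20 of 27 (74.1%, against 11.8%) and CCAAT, on either strand, in 20 of 27 (74.1%, against 38.6%). A CHR match within 50 bases of the start was present in 20 of 27 (74.1%), against 4.87% of all these promoters. Of 23 promoters of DNA replication genes, which act in S phase, 5 (21.7%) held a CHR match and 14 (60.9%) held CCAAT. Of 52 promoters of other mitosis genes, 32 (61.5%) held a CHR match. Bub1 held CCAAT and no CHR match, Nuf2, Nusap1 and Mad2l1 held neither in the window, and for Mad2l1 and Kif2c the RefSeq start lay 247 and 3852 bases from that of the transcript measured. A match of letters is a description of the sequence and not a shown binding site.

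Promoters of 5 genes whose levels are followed below show the arrangement. Each line gives the 150 bases before the start on the gene's own strand, 5′ to 3′, with CHR and CCAAT matches in capitals (ATTGG and TTCAAA are matches on the opposite strand). All 5 genes lie on the minus strand of GRCm38.p6: Cdk1 at chr10:69352913-69353062, Ccnb1 at chr13:100786487-100786636, Ccnb2 at chr9:70421555-70421704, Top2a at chr11:99024190-99024339 and Mki67 at chr7:135716380-135716529.
Cdk1: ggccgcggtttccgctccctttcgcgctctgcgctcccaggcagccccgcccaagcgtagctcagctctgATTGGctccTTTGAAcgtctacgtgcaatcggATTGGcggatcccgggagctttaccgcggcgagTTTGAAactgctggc
Ccnb1: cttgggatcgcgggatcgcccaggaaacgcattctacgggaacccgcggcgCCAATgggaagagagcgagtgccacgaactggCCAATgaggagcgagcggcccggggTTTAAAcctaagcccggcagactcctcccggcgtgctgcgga
Ccnb2: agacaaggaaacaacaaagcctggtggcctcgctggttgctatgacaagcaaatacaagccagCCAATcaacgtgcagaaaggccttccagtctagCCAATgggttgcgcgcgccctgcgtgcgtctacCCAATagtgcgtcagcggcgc
Top2a: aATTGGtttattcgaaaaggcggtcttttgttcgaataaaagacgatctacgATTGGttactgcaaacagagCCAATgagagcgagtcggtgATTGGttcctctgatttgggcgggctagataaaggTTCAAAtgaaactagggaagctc
Mki67: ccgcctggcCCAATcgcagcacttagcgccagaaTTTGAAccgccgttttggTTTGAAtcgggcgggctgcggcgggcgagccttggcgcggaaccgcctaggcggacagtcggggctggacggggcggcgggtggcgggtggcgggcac
Counted from +1 at the start, Cdk1 held CCAAT at −80 and −48 and TTTGAA at −71 and −15. Ccnb1 held CCAAT at −99 and −67 and TTTAAA at −42. Ccnb2 held CCAAT at −87, −54 and −21 and TTTGAA just inside the transcript at 5, past the bases printed. Top2a held TTTGAA at −23 and CCAAT at −149, −98, −78 and −58, with further matches upstream of the bases printed. In Mki67 the nearest TTTGAA was farther out, at −98.

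**Figure D2:**
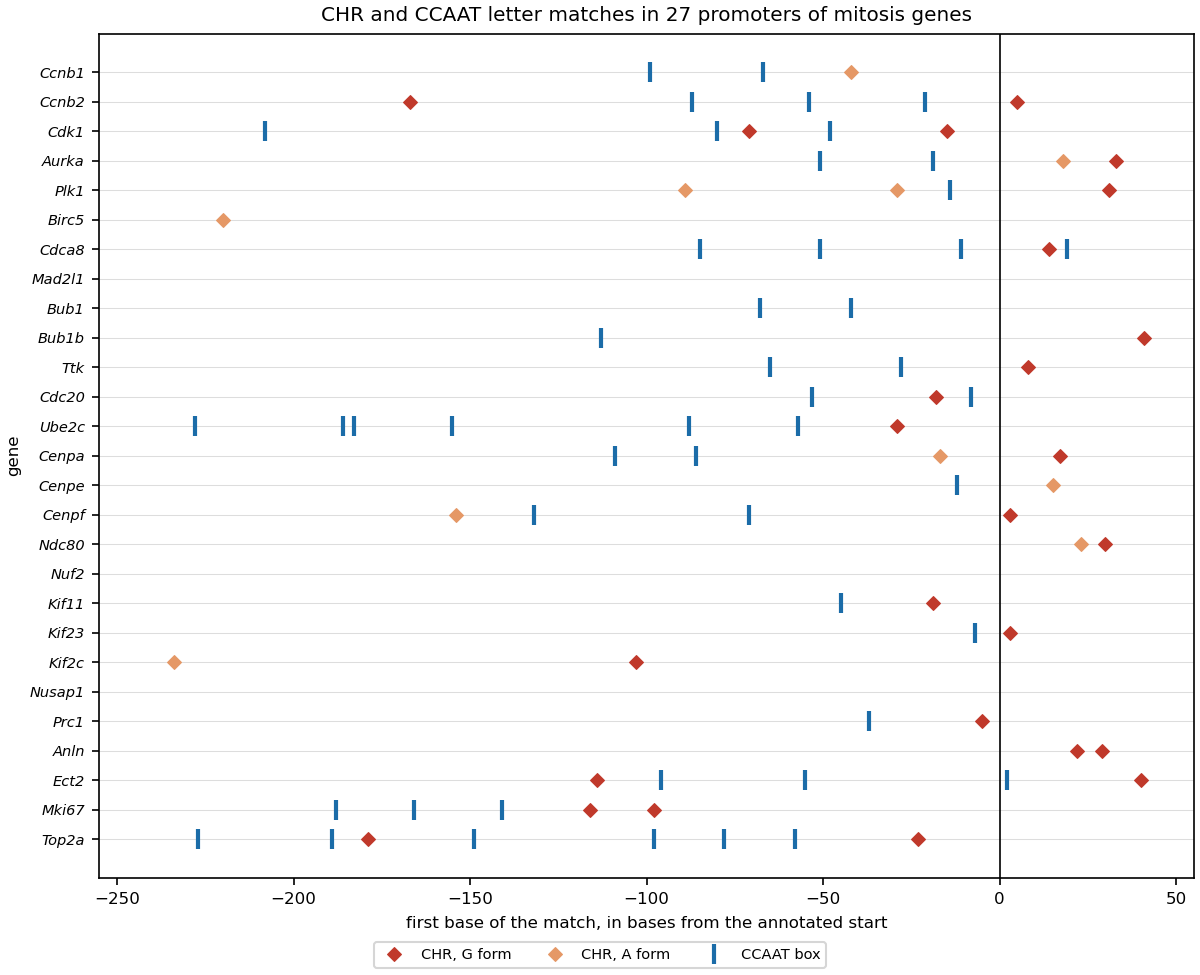
Positions of CHR matches (diamonds, G form and A form) and CCAAT boxes (bars) in the 27 promoters, in bases from the annotated start, with 1 row per gene. Most diamonds cluster around the start, within 50 bases of it in 20 of 27 promoters, and the bars stand mainly upstream.

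In homozygous cells, the 34 genes were lower with gLmna-2 than with gMock in both mice, and none of the 34 passed the test adjusted over all genes. The median ratio of gLmna-2 to gMock in the same mouse was 0.536 in mouse 1 and 0.670 in mouse 2, with 34 of 34 genes below gMock in each. Of all genes tested, 27.1% were lower in both mice in that comparison. The gLmna-2 and gMock libraries did not overlap in 34 of 34 genes, against 11% of all genes tested (lower with gLmna-2). limma called 0 of 34, where 0.357% of all genes were called, and the lowest adjusted p was 0.59 with 0 of 34 at an unadjusted p under 0.05 (10.1% of all genes). limma voom on the recovered reads also called 0, with 0 at an unadjusted p under 0.05.

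Mki67, the Ki-67 protein that coats mitotic chromosomes (chr7:135689788-135716379, minus strand, mm10), was at 1.89 and 2.77 FPKM with gLmna-2 and at 3.88 and 4.42 FPKM with gMock in homozygous mouse 1 and mouse 2. Its gLmna-1 libraries were at 2.596 and 3.71 FPKM. Both guides thus lay below both gMock values, with gLmna-2 the lowest in each mouse, and the log2 difference of gLmna-2 from gMock was −0.64 (SE 0.47, limma adjusted p = 0.775). Top2a, the topoisomerase that untangles sister chromatids (chr11:98992947-99024189, minus strand), was at 5.66 and 7.32 FPKM with gLmna-2, 9.44 and 9.05 FPKM with gLmna-1 and 10.8 and 12.35 FPKM with gMock. It kept the order gLmna-2, gLmna-1, gMock in both mice. Cdk1 (chr10:69336635-69352912, minus strand) was at 8.49 and 10.3 FPKM with gLmna-2, 12.3 and 10.7 FPKM with gLmna-1 and 13.0 and 14.25 FPKM with gMock. Its groups did not overlap either. Ccnb1 (chr13:100778739-100786486, minus strand) was at 1.16 and 0.873 FPKM with gLmna-2, 1.39 and 1.24 FPKM with gLmna-1 and 1.87 and 1.33 FPKM with gMock. Here the gLmna-1 and gMock values overlapped between mice. Foxm1, a transcription factor that activates G2 and M genes (chr6:128362994-128375886, plus strand), was at 2.99 and 3.97 FPKM with gLmna-2, 4.18 and 4.00 FPKM with gLmna-1 and 4.65 and 4.44 FPKM with gMock. Of the 5 genes, Foxm1 had the smallest log2 difference of gLmna-2 from gMock, −0.32 (SE 0.36, limma adjusted p = 0.901).

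**Figure D3:**
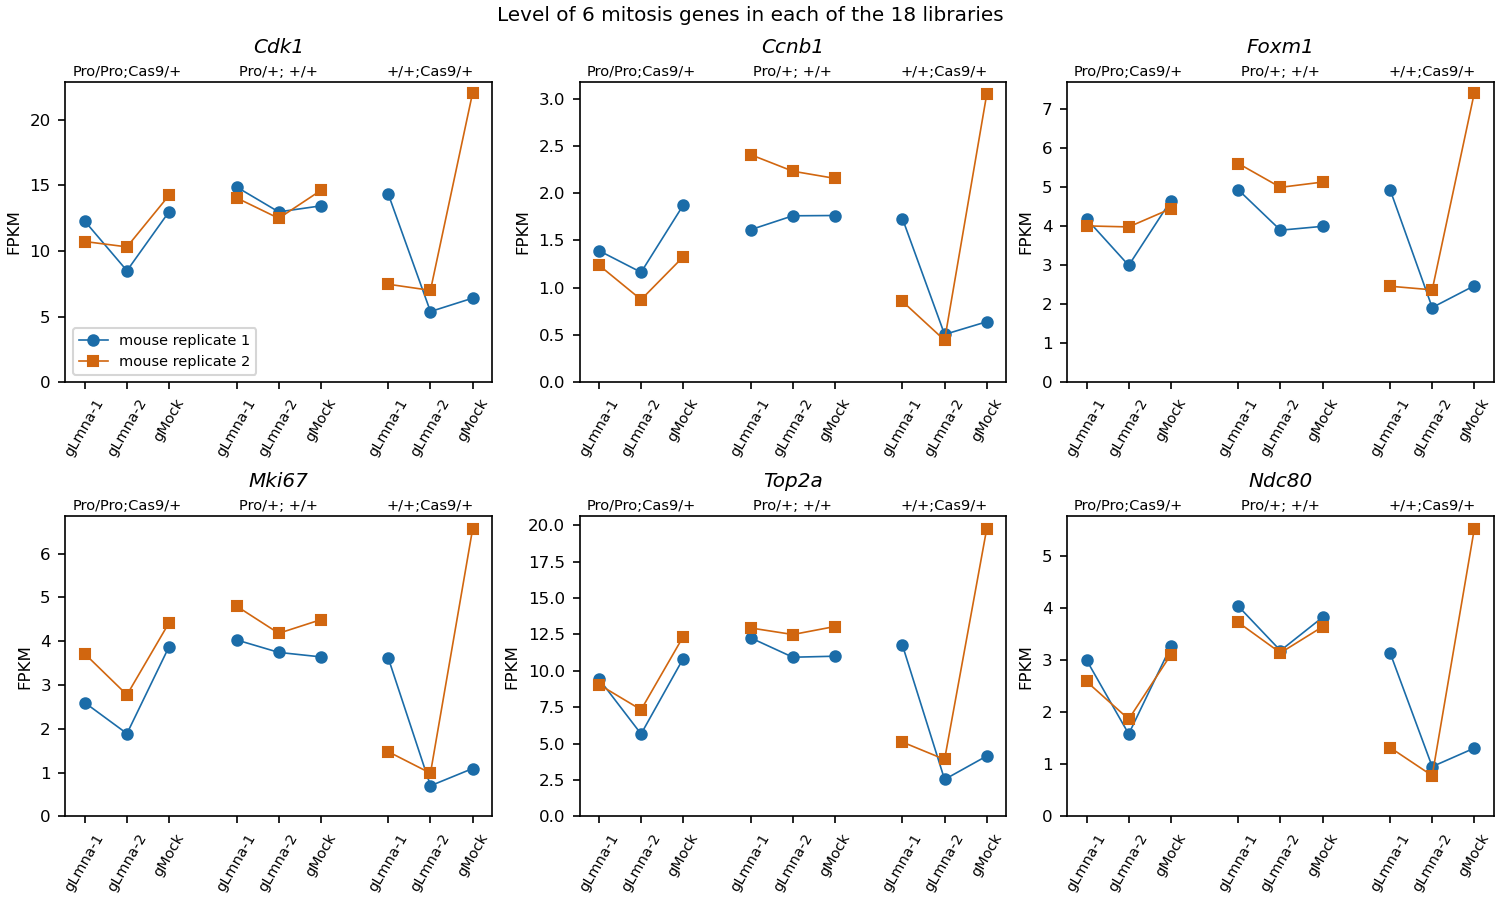
FPKM (vertical axis, from 0) of 6 of the genes in each library, with gLmna-1, gLmna-2 and gMock from left to right within each genotype and a line for each mouse (circles mouse 1, squares mouse 2). In homozygous cells gLmna-2 is the lowest point of every line, heterozygous lines are nearly flat, and the 2 wild-type lines cross between gLmna-1 and gMock.

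By role, the differences of gLmna-2 from gMock in homozygous cells ran as follows on the log2(FPKM + 1) scale. This scale understates changes of low genes, so the order of genes and roles holds for it and can differ by fold. The 5 centromere and kinetochore genes had a median of −0.65. The largest among them on this scale was Cenpa, the histone that marks the centromere, at −0.86 (SE 0.44, limma adjusted p = 0.59), with 4.28 and 2.90 FPKM under gLmna-2 and 8.49 and 6.11 FPKM under gMock. By fold Cenpe fell at least as far, with 1.36 and 1.06 FPKM under gLmna-2 and 2.83 and 2.28 FPKM under gMock. Ndc80 and Nuf2 are partners in the complex that grips microtubules. Ndc80 was at 1.58 and 1.86 FPKM with gLmna-2 and at 3.26 and 3.10 FPKM with gMock. Cdc20, the activator of the anaphase-promoting complex, and Ube2c stood at −0.75 and −0.64. The 4 checkpoint genes had a median of −0.51, led by Ttk at −0.64 (SE 0.35, limma adjusted p = 0.648), which was at 0.631 and 1.19 FPKM with gLmna-2 and at 1.92 and 1.97 FPKM with gMock. Spindle motors and microtubule binders (Kif11, Kif20a, Kif23, Kif2c, Tpx2, Nusap1 and Prc1) had a median of −0.57, and the mitotic kinases Aurka, Plk1 and Pbk one of −0.60. The chromosomal passenger complex, which corrects faulty attachments, had a median of −0.44 with Birc5 lowest at −0.81. Cytokinesis genes Anln and Ect2 stood at −0.54 and −0.46. The chromosome structure genes Mki67 and Top2a stood at −0.64 and −0.76, with a median of −0.70. The cyclins, Cdk1 and Foxm1 had the smallest median, −0.36. Kif20a values are less certain, because 32.1% of its exon bases are shared with Cdc23 on the other strand. The strand setting of the counting is not given in the sources used here. The same limit holds to a smaller degree for Ccna2 (13.4% shared with Exosc9), Nusap1 (7.03% with Oip5) and Cdc20 (2.91% with Elovl1). Foxm1 shares 2.06% with Tex52 on its own strand.

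gLmna-1 gave smaller differences in homozygous cells. The median ratio to gMock in the same mouse was 0.794 in mouse 1, with 32 genes below gMock, and 0.896 in mouse 2, with 29 below. In 27 of 34 genes both mice were below gMock, against 27.7% of all genes. The gLmna-1 and gMock libraries did not overlap in 26 of 34 genes, against 18.4% of all genes tested. The 8 genes that overlapped were Ccnb1, Ccnb2, Plk1, Pbk, Birc5, Cdca8, Cenpa and Kif20a. limma called 0 of 34 (0.976% of all genes were called), with 0 at an unadjusted p under 0.05 (18% of all genes), and voom called 0 likewise. The smallest p-values were those of Ttk, with a log2 difference of −0.41 (SE 0.35), and Anln, anillin of the contractile ring, with −0.44 (SE 0.46). Their limma adjusted p-values were 0.62 and 0.692. With both guides pooled (4 libraries against 2), all 34 differences were negative, with a median of −0.38 beside −0.01 over all genes. In that comparison 26 of 34 genes did not overlap with gMock, against 4% of all genes tested that were lower and 3.6% that were higher. limma called 0 of 34, where 0.0794% of all genes were called, with 0 at an unadjusted p under 0.05 (8.37% of all genes). The lowest limma adjusted p was 0.736, that of Ttk (−0.52, SE 0.31), and Cenpe, a kinetochore motor, came next with −0.52 (SE 0.33, limma adjusted p = 0.77).

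A single estimate of spread served all 18 libraries in these tests. The median standard error of the 34 genes was 0.45 for 1 guide against gMock, where it was 0.13 over all genes tested. Without the 6 wild-type libraries, an alternative chosen after the data were seen, it was 0.12 and the median differences were the same. Then 34 of 34 genes had an unadjusted p under 0.05 for gLmna-2 against gMock in homozygous cells, with adjusted p-values from 0.11 to 0.47, so 0 were called. Under both guides together 29 of 34 had an unadjusted p under 0.05, with a lowest adjusted p of 0.26. In a planned fit on the homozygous libraries only, 22 of 34 had an unadjusted p under 0.05 for both guides together. That fit called 0 of the 34 and 0 of 12599 genes. The shares of all genes at an unadjusted p under 0.05 in these smaller fits are not given here. Summed macrophage markers in homozygous cells were at 544 and 1360 FPKM with gLmna-1, 1780 and 895 FPKM with gLmna-2 and 696 and 834 FPKM with gMock. Skeletal muscle markers were at 13.6 and 8.69 FPKM with gLmna-1, 34.7 and 41.8 FPKM with gLmna-2 and 17.1 and 18.7 FPKM with gMock, so they were highest with gLmna-2. Pigment and Schwann cell markers were at 9.44 and 22.5 FPKM with gLmna-1, 14 and 38.9 FPKM with gLmna-2 and 6.22 and 26.7 FPKM with gMock, highest with gLmna-2 in each mouse. For gLmna-2 against gMock limma called 0 of the 2 muscle markers tested and 0 of the 5 pigment and Schwann cell markers tested, and all 7 differences were positive. Of 10 fibroblast markers 1 was called, Thy1, a surface protein, which was higher with gLmna-2 at 158 and 85.6 FPKM against 41.9 and 34.6 FPKM with gMock (log2 difference 1.58, SE 0.20, limma adjusted p = 0.022). The other fibroblast markers were positive in 4 genes and negative in 5. Among them the collagen gene Col1a1 was at 1760 and 1120 FPKM with gLmna-2 and at 2400 and 1160 FPKM with gMock, and Col3a1 at 314 and 116 FPKM with gLmna-2 and at 368 and 123 FPKM with gMock. The part of these markers in the result was not tested.

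**Figure D4:**
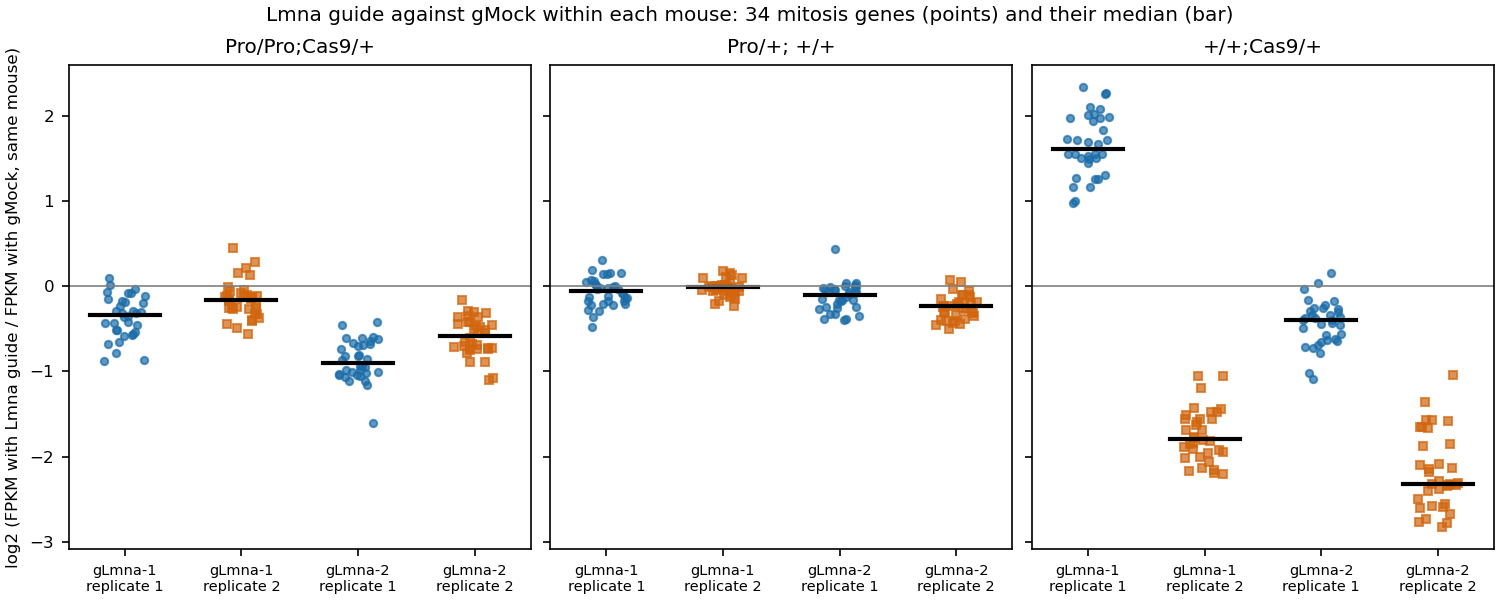
For each mouse and each Lmna guide, points give log2 of the FPKM ratio to gMock of the same mouse for the 34 genes (jittered sideways), and bars give the median. With gLmna-2 in homozygous cells all points lie below 0 in both mice, heterozygous points lie near 0, and with gLmna-1 the 34 points of wild-type mouse 1 lie above 0 and those of wild-type mouse 2 below it.

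In wild-type Cas9 cells the mice gave opposite answers with gLmna-1. The median ratio of gLmna-1 to gMock was 3.05 in mouse 1, with 34 of 34 genes above gMock, and 0.288 in mouse 2, with 34 of 34 below. With gLmna-2 both mice were lower: the median ratio was 0.761 in mouse 1, with 32 genes below gMock, and 0.201 in mouse 2, with 34 below. Both mice were below gMock in 32 of 34 genes with gLmna-2, the exceptions being Pbk and Cdc20, against 33.7% of all genes. Mki67 was at 3.61 and 1.48 FPKM with gLmna-1, 0.697 and 0.985 FPKM with gLmna-2 and 1.09 and 6.56 FPKM with gMock in wild-type mouse 1 and mouse 2. Top2a was at 11.8 and 5.10 FPKM with gLmna-1, 2.53 and 3.91 FPKM with gLmna-2 and 4.14 and 19.8 FPKM with gMock. Both genes had their gMock values on either side of their gLmna-1 values. Cdk1 was at 14.3 and 7.46 FPKM with gLmna-1, 5.38 and 6.996 FPKM with gLmna-2 and 6.40 and 22.1 FPKM with gMock. Ccnb1 was at 1.73 and 0.854 FPKM with gLmna-1, 0.504 and 0.443 FPKM with gLmna-2 and 0.6385 and 3.05 FPKM with gMock. Foxm1 was at 4.93 and 2.46 FPKM with gLmna-1, 1.91 and 2.36 FPKM with gLmna-2 and 2.47 and 7.41 FPKM with gMock. For Ccnb1 and Foxm1 the gLmna-2 values lay below both gMock values, by little in mouse 1 and by far in mouse 2.

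limma called 0 of 34 genes in wild-type cells for both guides together (median log2 difference −0.52, 0.849% of all genes called), for gLmna-1 (median −0.10, 0.691% called) and for gLmna-2 (median −0.96, 0.564% called). At an unadjusted p under 0.05 there were 0 of 34 genes for both guides (7.61% of all genes), 0 for gLmna-1 (8.61%) and 13 for gLmna-2 (7.56%). With voom there were 2, 0 and 17, with 0 called, and the medians were larger, at −1.06 for both guides, −0.48 for gLmna-1 and −1.63 for gLmna-2, with all 34 genes negative in each. The comparisons share their gMock libraries. The smallest p-values with gLmna-2 were those of Kif11, the motor that pushes spindle poles apart, and Ndc80. Kif11 was at 0.647 and 0.922 FPKM with gLmna-2 and at 1.12 and 5.56 FPKM with gMock (log2 difference −1.07, SE 0.41, limma adjusted p = 0.597). Ndc80 was at 0.953 and 0.779 FPKM with gLmna-2 and at 1.31 and 5.52 FPKM with gMock (log2 difference −1.06, SE 0.41, limma adjusted p = 0.598). Both genes also led the comparison of both guides with gMock, at −0.64 (SE 0.35, limma adjusted p = 0.722) for Kif11 and −0.69 (SE 0.35, limma adjusted p = 0.704) for Ndc80. With gLmna-1, Ndc80 and Foxm1 came first, at −0.32 and −0.25 (SE 0.41 and 0.36). The gLmna-2 and gMock libraries did not overlap in 10 of 34 genes, against 18% of all genes tested. These values turn on single libraries. For gLmna-2 the median was −2.01 without gMock of mouse 1 and 0.03 without gMock of mouse 2. Each of these fits leaves 1 wild-type gMock library. For both guides together the median was −1.56 without gMock of mouse 1 and 0.45 without gMock of mouse 2, and for gLmna-1 it was −1.10 and 0.91. Without gLmna-1 of mouse 1 it was −0.98 for both guides and −1.04 for gLmna-1, and without gLmna-1 of mouse 2 it was −0.08 and 0.86. Macrophage markers summed to 477 and 189 FPKM with gLmna-1, 448 and 248 FPKM with gLmna-2 and 283 and 80.0 FPKM with gMock. Skeletal muscle markers summed to 53.1 and 18.3 FPKM with gLmna-1, 66.3 and 47.2 FPKM with gLmna-2 and 54.8 and 39.5 FPKM with gMock. The part of both lists in the result was not tested.

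In heterozygous cells, which have no Cas9, the genes differed little between guides. The median ratio to gMock under gLmna-1 was 0.961 in mouse 1 and 0.989 in mouse 2. Under gLmna-2 it was 0.929 in mouse 1 and 0.847 in mouse 2. Mki67 was at 4.03 and 4.80 FPKM with gLmna-1, 3.74 and 4.18 FPKM with gLmna-2 and 3.64 and 4.49 FPKM with gMock. Top2a was at 12.3 and 12.9 FPKM with gLmna-1, 10.9 and 12.5 FPKM with gLmna-2 and 11 and 13.0 FPKM with gMock. Groups overlapped for both genes. Cdk1 was at 14.9 and 14.1 FPKM with gLmna-1, 13.0 and 12.5 FPKM with gLmna-2 and 13.4 and 14.6 FPKM with gMock. Ccnb1 was at 1.61 and 2.41 FPKM with gLmna-1, 1.76 and 2.23 FPKM with gLmna-2 and 1.76 and 2.16 FPKM with gMock. Foxm1 was at 4.92 and 5.60 FPKM with gLmna-1, 3.89 and 4.99 FPKM with gLmna-2 and 3.99 and 5.12 FPKM with gMock. The spread between the mice was as large as the spread between guides for Ccnb1 and Foxm1, and for Cdk1 both gLmna-2 values lay just below both gMock values. limma called 0 of 34 genes with gLmna-1 (median −0.03, and 0.01 with FPKM rescaled by the median of ratios), gLmna-2 (median −0.16) or both (median −0.09), where 0% of all genes were called in each. An unadjusted p under 0.05 was held by 0 of 34 genes with gLmna-1 (1.37% of all genes), gLmna-2 (4.49%) or both (3.15%), and voom likewise gave 0 and called 0. The smallest p-values belonged to Cdca8 (borealin, −0.26) and Foxm1 (0.18) with gLmna-1, Ect2 (the exchange factor that starts the cleavage furrow, −0.30) and Kif20a (−0.29) with gLmna-2, and Kif20a (−0.21) and Kif2c (a microtubule depolymerase, −0.23) with both. All their limma adjusted p-values were 0.996 or above. In the fit without the wild-type libraries the median standard error for 1 guide against gMock was 0.12. The lowest unadjusted limma p was then 0.099 with gLmna-1, 0.015 with gLmna-2 and 0.044 with both. Over the settings that keep all heterozygous libraries, at most 5 of 34 had an unadjusted p under 0.05 with gLmna-2 and 1 with both. In these settings 0 were called, and their shares of all genes are not given here. Even so, gLmna-2 and gMock did not overlap in 25 of 34 genes, lower with gLmna-2, against 19.4% of all genes tested. With gLmna-1 it was 4 of 34 (15.1% of all genes), and with both guides 3 of 34 (6.67%). Lower values with gLmna-2 were therefore also seen in cells without the Cas9 transgene, at a smaller size. Both mice were below gMock in 28 of 34 genes, where 43.1% of all genes were lower in both mice and 20.4% higher. The median ratio of gLmna-2 to gMock over all genes tested was 0.973 in mouse 1 and 0.958 in mouse 2. With FPKM rescaled by the median of ratios, the median of the 34 genes for gLmna-2 was −0.12.

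The guides also differed from each other. In homozygous cells the median ratio of gLmna-2 to gLmna-1 was 0.710 in mouse 1, with 34 genes lower, and 0.742 in mouse 2, with 32 lower. The groups did not overlap in 30 of 34 genes, against 14.8% of all genes tested, the exceptions being Mad2l1, Ttk, Tpx2 and Mki67. limma called 0 of 34 genes (median −0.33), although 9.95% of all genes were called, and 0 had an unadjusted p under 0.05 with limma (25.2% of all genes) or with voom. Cenpa (−0.67, SE 0.44, limma adjusted p = 0.394) and Ccnb2 (−0.67, SE 0.50, limma adjusted p = 0.457) came first. Ccnb2 was at 4.23 and 2.90 FPKM with gLmna-2 and at 5.93 and 6.48 FPKM with gLmna-1. Without the wild-type libraries, 1 gene was called, Nuf2, at −0.49 (SE 0.10, limma adjusted p = 0.0447), and 21 of 34 had an unadjusted p under 0.05. That fit was chosen after the data were seen. Its shares of all genes are not given here, so neither count can be set against them. Markers of other cells and of fibroblasts differed in the same comparison. Both muscle markers tested were higher with gLmna-2, Acta1 by 1.70 (SE 0.27, limma adjusted p = 0.0086) and Des by 0.86 (SE 0.18, limma adjusted p = 0.02) on the log2 scale. Of the fibroblast markers, Thy1 was higher (1.08, SE 0.20, limma adjusted p = 0.014), and Col1a1 (−0.80, SE 0.19, limma adjusted p = 0.029) and Col3a1 (−1.37, SE 0.29, limma adjusted p = 0.022) were lower. The keratinocyte marker Trp63 was lower too (−0.60, SE 0.15, limma adjusted p = 0.038). Its levels were low, at 0.32 and 0.305 FPKM with gLmna-2 and 0.935 and 1.03 FPKM with gLmna-1. The part of these markers in the result was not tested. In wild-type cells the ratio of gLmna-2 to gLmna-1 was 0.225 in mouse 1 and 0.724 in mouse 2, and 33 of 34 genes did not overlap (14.4% of all genes tested), with Mad2l1 the exception. Here limma called 0 of 34 genes (median −0.85) and 0% of all genes, with 4 of 34 at an unadjusted p under 0.05 (8.01% of all genes) and 0 with voom. Ccnb2 led with 0.921 and 2.445 FPKM under gLmna-2 and 7.49 and 3.90 FPKM under gLmna-1 (log2 difference −1.33, SE 0.50, limma adjusted p = 0.554), and Anln followed at −1.07 (SE 0.46). In heterozygous cells the ratio was 0.951 and 0.863, limma called 0 of 34 genes (median −0.12) and 0% of all genes, and 0 had an unadjusted p under 0.05 (2.11% of all genes). There gLmna-2 lay below gLmna-1 without overlap in 15 of 34 genes (12.3% of all genes tested) and above it in 2 (9.38%). Ect2 and Foxm1 came first there, at −0.24 and −0.21. The median in wild-type cells was −1.81 without gLmna-1 of mouse 2 and 0.08 without gLmna-1 of mouse 1.

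Whether the effect of the guides differed between genotypes was tested as a difference of differences, with both guides pooled. Between homozygous and heterozygous cells all 34 values were negative, with a median of −0.28 beside 0.04 over all genes, and limma called 0 of 34 genes and 0% of all genes. The smallest p-values were those of Ttk (−0.51, SE 0.43) and Mki67 (−0.52, SE 0.57), both with a limma adjusted p that rounds to 1. Without the wild-type libraries 7 of 34 had an unadjusted p under 0.05 and 0 were called. Between homozygous and wild-type cells the median was 0.17, 28 of 34 were positive and 0 were called (0.0476% of all genes were), with Foxm1 at 0.30 (SE 0.44) and Aurkb, the kinase of the passenger complex, at 0.41 (SE 0.60). Between wild-type and heterozygous cells the median was −0.45, all 34 were negative and 0 were called (0.294% of all genes were), with Foxm1 at −0.60 (SE 0.44) and Ccnb1 at −0.52 (SE 0.41). In all 3, 0 of 34 genes had an unadjusted p under 0.05 with limma or with voom, beside 4.15%, 3.03% and 3.84% of all genes with limma. The last 2 medians turned on single wild-type libraries. They were 1.16 and −1.43 without gMock of mouse 1, −0.87 and 0.55 without gMock of mouse 2, 0.64 and −0.87 without gLmna-1 of mouse 1, and −0.33 and 0.04 without gLmna-1 of mouse 2. Without homozygous gMock of mouse 2 the first of them was 0.06. With voom they were 0.52 and −0.95. They share the wild-type libraries.

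Under gMock alone the summed level of both other genotypes lay between those of the 2 wild-type mice, and none of the 34 passed the test. Heterozygous minus wild-type had a median of 0.34, with all 34 genes positive, homozygous minus wild-type one of 0.21, also with all 34 positive, and homozygous minus heterozygous one of −0.15, with 30 of 34 negative. limma called 0 of 34 in each, where 0.413%, 0.397% and 0% of all genes were called, with 0 at an unadjusted p under 0.05 by limma or voom, beside 12.5%, 10.4% and 4.34% of all genes with limma. Cdc20 had the smallest p in both comparisons with wild-type cells, at 0.87 (SE 0.75, limma adjusted p = 0.668) for heterozygous and 0.59 (SE 0.75, limma adjusted p = 0.979) for homozygous cells. It was at 12.6 and 13.3 FPKM in heterozygous, 12.4 and 8.82 FPKM in homozygous and 2.19 and 17.1 FPKM in wild-type cells, all inside the range of the wild-type mice. Ccnb2 came next for heterozygous minus wild-type (0.73, SE 0.65) and Cenpa for homozygous minus wild-type (0.40, SE 0.60). Kif20a and Ccnb2 led homozygous minus heterozygous, at −0.35 (SE 0.50) and −0.45 (SE 0.65). In that comparison the libraries did not overlap in 21 of 34 genes, lower in homozygous cells (16.1% of all genes), and in 1 gene, Ttk, higher (13.6%). Without wild-type gMock of mouse 2 the medians against wild-type cells were 1.28 for heterozygous and 1.11 for homozygous cells, and without mouse 1 they were −0.50 and −0.67. Fibroblast markers Pdgfra (−1.16, SE 0.11, limma adjusted p = 0.037) and Thy1 (−3.26, SE 0.37, limma adjusted p = 0.042) were lower in homozygous than in wild-type cells under gMock. Thy1 was at 41.9 and 34.6 FPKM in homozygous and 461 and 301 FPKM in wild-type cells. The muscle marker Acta1 was lower in heterozygous than in wild-type cells (−1.99, SE 0.17, limma adjusted p = 0.029). The part of these markers in the result was not tested.

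Averaged over the 3 guides, each mouse gave 1 value per gene, and on these the heterozygous mice stood highest. The mean over the 34 genes of log2(FPKM + 1) was 2.44 and 2.46 in homozygous mice, 2.77 and 2.83 in heterozygous mice and 1.91 and 2.37 in wild-type mice. Heterozygous mice were above both wild-type mice in 34 of 34 genes (24.8% of all genes tested), and homozygous mice were below both heterozygous mice in 34 of 34 (16.5%). Homozygous mice were above both wild-type mice in 23 of 34 (25%). These averages include the guide libraries, and the 3 comparisons share mice.

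For heterozygous minus wild-type mice, limma called 1 of 34 genes, where 1.45% of all genes were called. This was Ndc80, which was higher in heterozygous mice: its mean log2(FPKM + 1) was 2.22 and 2.17 in heterozygous and 1.41 and 1.58 in wild-type mice (difference 0.70, SE 0.10, limma adjusted p = 0.0496). Ndc80 kept the call with a pseudocount of 0.1 and with the longest transcript per gene and lost it under the other settings: its limma adjusted p was 0.054 with FPKM rescaled by the median of ratios and 0.13 or more with no filter, with the replicate block or with 1 mouse left out. Bub1b, the checkpoint protein BubR1, came next with 2.44 and 2.58 in heterozygous and 1.53 and 1.86 in wild-type mice (difference 0.82, SE 0.14, limma adjusted p = 0.061). In all, 33 of 34 genes had an unadjusted p under 0.05, beside 22.5% of all genes, with a median difference of 0.65. By role the medians ran from 0.47 for the checkpoint genes to 0.86 for Cdc20 and Ube2c. Mki67 stood at 0.82 (SE 0.18), Top2a at 0.85 (SE 0.17), Cdk1 at 0.53 (SE 0.13), Ccnb1 at 0.54 (SE 0.15) and Foxm1 at 0.43 (SE 0.13). Their limma adjusted p-values lay between 0.0819 for Top2a and 0.148 for Foxm1. Of the muscle markers, Acta1 was lower in heterozygous mice in the same comparison (difference of averages −2.05, SE 0.28, limma adjusted p = 0.048), with 6.42 to 11.4 FPKM in heterozygous and 18 to 65.3 FPKM in wild-type libraries, and its part in the result was not tested.

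The other genotype comparisons of mouse averages called 0 of 34 genes. For homozygous minus heterozygous mice the median was −0.35, with 5 of 34 genes at an unadjusted p under 0.05 (8.67% of all genes) and 0% of all genes called. Ndc80 (−0.38, SE 0.10) and Bub1b (−0.50, SE 0.14) came first, both with a limma adjusted p of 0.565. For homozygous minus wild-type mice the median was 0.31, with 5 of 34 at an unadjusted p under 0.05 (15% of all genes) and 0.341% of all genes called. Ndc80 (0.31, SE 0.10, limma adjusted p = 0.237) and Mki67 (0.50, SE 0.18, limma adjusted p = 0.289) came first. The fibroblast marker Pdgfra was lower in homozygous mice in that comparison (−1.12, SE 0.11, limma adjusted p = 0.043), and its part in the result was not tested. Without wild-type mouse 1 the medians against wild-type mice were 0.42 for heterozygous and 0.09 for homozygous mice, and without wild-type mouse 2 that for homozygous mice was 0.52. Cas9 is present in homozygous and wild-type cells and absent from heterozygous cells, so Cas9 and the Pro allele cannot be told apart where heterozygous cells are compared.

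**Figure D5:**
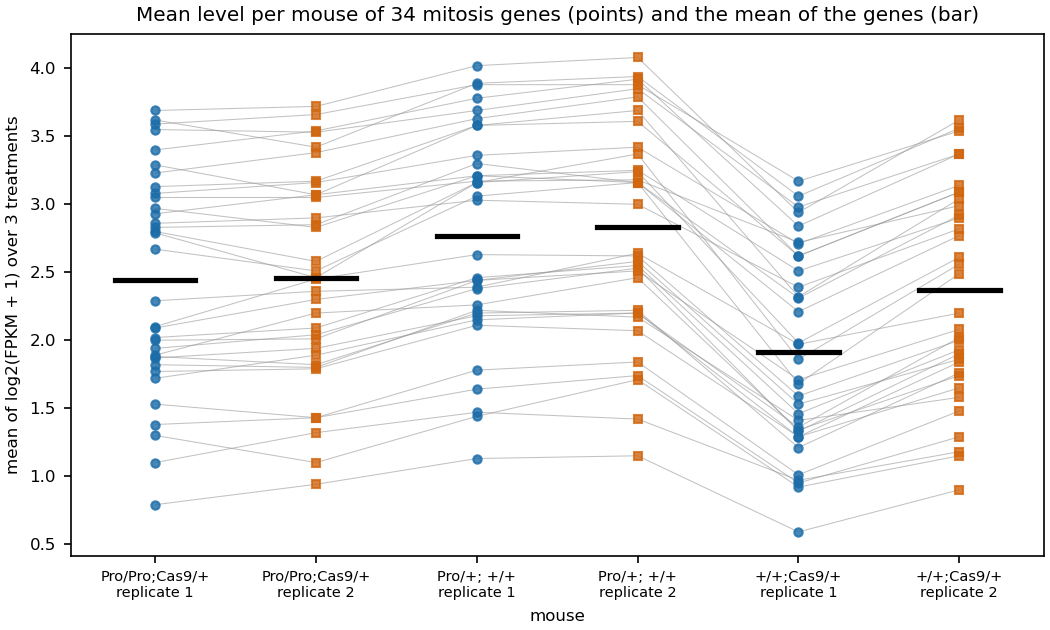
Mean of log2(FPKM + 1) over the 3 guides for each of the 34 genes (points, joined by thin lines) in each of the 6 mice, with the mean over the genes as a bar. The heterozygous bars, at 2.77 and 2.83, are the highest and the wild-type bar of mouse 1, at 1.91, is the lowest.

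Other genes of the cell cycle were set beside the 34. Of 66 further mitosis genes 62 were tested, and limma called 0 in any of the 21 comparisons. Their median log2 difference was −0.39 for gLmna-2 against gMock in homozygous cells, with 60 of 62 negative, and 0.40 for heterozygous minus wild-type mouse averages, with 59 of 62 positive. DNA replication genes (26, among them the Mcm helicase and Pcna) had medians of −0.31, with 25 of 26 negative, and 0.31, with 23 of 26 positive, in the same comparisons, and 0 were called. The 13 genes listed for the anaphase-promoting complex had medians of −0.07 and 0.07. They are its core genes, which are not made in phases, and its activator Fzr1. Of that complex, Cdc16 was called once, lower with gLmna-2 than with gLmna-1 in homozygous cells (−0.35, SE 0.06, limma adjusted p = 0.01). Of 16 transcription regulators of the cell cycle, such as the E2f and MuvB genes, 14 were tested and 0 called. Over the 21 comparisons, calls were held by 3 of the 6 tested inhibitors of cyclin-dependent kinases and by 2 of the 9 tested G1 cyclins and kinases. For gLmna-2 against gLmna-1 in homozygous cells, where Cdc16 and several of these were called, 9.95% of all genes were called. The share was 0.976% for gLmna-1 and 0.357% for gLmna-2 against gMock in homozygous cells. For heterozygous minus wild-type mouse averages it was 1.45%. Cdkn2a, the locus of p16 and p19Arf, was higher in homozygous cells with gLmna-1 (log2 difference 0.46, SE 0.08, limma adjusted p = 0.047) and with gLmna-2 (0.54, SE 0.08, limma adjusted p = 0.038), at 145 and 102 FPKM with gLmna-1, 150 and 110 FPKM with gLmna-2 and 112 and 69.1 FPKM with gMock. It exceeded gMock in each mouse, while the groups overlapped between mice. Cdkn2c, p18, was higher in heterozygous than in wild-type mice (difference of averages 1.73, SE 0.22, limma adjusted p = 0.047). It was lower with gLmna-2 than with gLmna-1 in homozygous cells (−0.88, SE 0.19, limma adjusted p = 0.024), as was Cdkn1b, p27 (−0.75, SE 0.13, limma adjusted p = 0.011). Ccnd1, the G1 cyclin D1, fell by 0.72 on the log2 scale with gLmna-1 against gMock in homozygous cells (SE 0.13, limma adjusted p = 0.042), and it was higher with gLmna-2 than with gLmna-1 (1.19, SE 0.13, limma adjusted p = 0.003). Its levels were 93.6 and 120 FPKM with gLmna-1, 198 and 300 FPKM with gLmna-2 and 128 and 241 FPKM with gMock. Cdk4, a kinase partner of cyclin D1, was lower with gLmna-2 than with gLmna-1 (−0.32, SE 0.08, limma adjusted p = 0.044), at 139 and 122 FPKM with gLmna-2 and 190 and 140 FPKM with gLmna-1, where the groups did not overlap.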

How the data were processed

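RNA of 18 fibroblast libraries from 6 mice was analysed. The authors deposited FPKM values per transcript part, made with HOMER on mm10 by counting exons, per the file headers, which also give each part's length in bases. STAR 2.4.0k, FastQC 0.11.2 and HOMER are named in the submitters' processing notes, and the strand setting is not given in the sources used here. Of 24 library columns, 6 match no labelled sample and were not used. Parts were joined to 36795 transcripts, and the transcript with the highest mean was taken for each of 24445 symbols (127 transcripts had no symbol). Reads per library were recovered from the FPKM steps (100% of values whole within 0.05), and intervals of counting error were not computed.

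Genes with 1 FPKM or more in at least 2 libraries (12599) were tested on log2(FPKM + 1) with limma 3.58.1 in R 4.3.3, with Benjamini-Hochberg adjustment over all of them and a threshold of 0.05. A fold on this scale understates changes of low genes. Guides were compared with the mouse as a block, since the titles give the same mouse under all 3 guides; deviations of same-mouse libraries correlated between −0.0193 and 0.778. Genotypes were compared in the 6 gMock libraries and in 6 mouse means. The rule for named genes was the members Mki67, Top2a, Ccnb1, Cdk1 and Foxm1 in every library and the 2 members of smallest p in each comparison; others named for a count or level were chosen after their values were seen. The members and lists were chosen with earlier results of these data known. In simulated data for both guides against gMock in homozygous cells, limma recovered 95% of 200 genes changed by log2 1 among 12599. Apart from counting error, the simulated spread was fixed, the same for every gene and not taken from the data. The 34 genes had a median standard error of 0.39 in that comparison of the real data, so the 95% does not describe them. Tables were handled in pandas 2.3.3 and numpy 2.4.6 (Python 3.11.15), and plots drawn with matplotlib 3.10.9.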

Additional observations from a re-analysis of the deposited data

Results flagged for a closer look

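Incenp, the scaffold of the chromosomal passenger complex, was flagged in the 4 Lmna guide libraries of heterozygous cells because 1 of them stood apart from the other 3. gLmna-1 of mouse 2 was at 8.66 FPKM, and the others were at 8.14, 8.22 and 8.15 FPKM, so its gap was 0.843 of the range, past Dixon's critical value. Chance flags about 1 in 20 such groups.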

How the results depend on the processing

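Of 258 counts of called genes under other settings, over 21 comparisons, 249 were the same as reported and 9 were not. For heterozygous minus wild-type mouse averages, 0 genes were called in place of 1 with no filter on low values, with FPKM scaled by the median of ratios and with the replicate block, and 0 with any 1 mouse left out. Without 1 mouse that median lay between 0.42 and 0.86. For gLmna-2 against gMock in wild-type cells, leaving out 1 library gave between 0 and 28 called genes. With the 6 wild-type libraries left out, an alternative chosen after seeing the data, 1 gene was called for gLmna-2 against gLmna-1 in homozygous cells. With all libraries, 9.95% of all genes were called in that comparison. The cause of these differences was not tested, except that leaving out samples also leaves fewer degrees of freedom. Without the mouse block, no count for a guide comparison changed. For genotype comparisons the replicate block was fitted as mouse 1 against mouse 2, a number that pairs nothing between genotypes. With 1 library left out, the median for gLmna-2 against gMock in homozygous cells stayed between −0.65 and −0.45. A pseudocount of 0.1 and the longest transcript changed no count, nor did voom in the 18 comparisons it was run for, which leave out the mouse averages. The medians moved more: with voom those of the 3 wild-type comparisons with gMock grew by over 1.5 times, and with a pseudocount of 0.1 that of homozygous minus wild-type cells under gMock was 0.37 in place of 0.21. Depth limits the lowest values, which rest on 24 reads.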
